A study of Mus musculus with 18 samples.

Results

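The genes described here are 34 targets and regulators of the stress response that the transcription factor ATF4 and the sensors of the endoplasmic reticulum (ER) control, measured in invading and non-invading mouse lung fibroblasts. They were picked by gene symbol, with earlier results of these data known, from 19938 genes that have a probe set with exactly 1 symbol, and each gene is given by the brightest of those probe sets. All 34 were measured. They fall into an amino acid branch of 14 genes (Asns, Atf4, Atf5, Ddit3, Trib3, Chac1, Sesn2, Psat1, Phgdh, Psph, Shmt2, Mthfd2, Slc7a5 and Slc3a2) and an ER branch of 20 genes (Hspa5, Hsp90b1, Calr, Canx, Pdia3, Pdia4, Pdia6, Dnajb9, Dnajb11, Dnajc3, Xbp1, Atf6, Ern1, Herpud1, Sdf2l1, Hyou1, Manf, Creld2, Edem1 and Sel1l). MLg 2908 cells, a wild-type line from newborn ddY mice of undetermined gender, were plated on a collagen gel. RNA was taken from the cells that had entered the gel (the invading fraction) and from those that had stayed on it (the non-invading fraction). There were 5 invading and 5 non-invading samples at 96 h, and 4 invading and 4 non-invading samples at 72 h, each a biological replicate by its label and an independent experiment by the legend of the study. The treatment entry of all 18 samples names TGFB1 beside the invasion assay, whereas the titles name no treatment and the study marks these cells as not treated, so this point is not settled by the labels. All groups come from 1 cell line.

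ATF4 is a transcription factor whose protein is made more efficiently when kinases phosphorylate the initiation factor eIF2α, for example when amino acids run short or when unfolded proteins gather in the ER. It switches on genes that import and synthesize amino acids, and it acts with CHOP, the product of Ddit3. Unfolded proteins in the ER also activate the sensors ATF6 and IRE1 (the product of Ern1), the second of which splices the mRNA of Xbp1, and these raise chaperones, disulfide isomerases and the machinery that removes misfolded proteins. Fibroblasts pass large amounts of collagen and other matrix proteins through the ER. The arrays measure mRNA per gene and read neither ATF4 protein nor the spliced form of Xbp1.

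Promoters of such genes are known to carry short motifs. Windows that hold a match are shown here for Asns from the amino acid branch and for 4 ER genes. Of these, Creld2, Dnajc3 and Dnajb11 passed the test given below for a rise from 72 h to 96 h in both fractions. Hspa5 passed it in the invading fraction and not in the non-invading, which is not shown to be a difference between fractions. Dnajb9 and Pdia3 also passed it in both fractions, and Pdia4 and Edem1 in the invading fraction. Their windows held no match to the longer ER motifs described below and are not shown. RefSeq windows of GRCm38.p6, 250 bases before to 50 bases after the start site, were matched for 30 of the 34 members (32 windows), with none for Atf6, Hyou1, Manf and Slc7a5. In the 5 windows that follow, written 5′ to 3′ on the strand of the gene, capitals mark the fixed letters of a matched motif. The window of Asns lies at chr6:7693160-7693459 on the minus strand, those of Hspa5 at chr2:34771840-34772139, Creld2 at chr15:88819396-88819695, Dnajc3 at chr14:118937682-118937981 and Dnajb11 at chr16:22857595-22857894 on the plus strand.
Asns: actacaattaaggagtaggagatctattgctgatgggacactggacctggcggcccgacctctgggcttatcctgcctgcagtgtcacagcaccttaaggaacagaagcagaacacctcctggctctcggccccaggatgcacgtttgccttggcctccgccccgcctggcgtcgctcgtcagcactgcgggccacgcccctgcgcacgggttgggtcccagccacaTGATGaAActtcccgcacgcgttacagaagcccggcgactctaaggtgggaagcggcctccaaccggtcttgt
Hspa5: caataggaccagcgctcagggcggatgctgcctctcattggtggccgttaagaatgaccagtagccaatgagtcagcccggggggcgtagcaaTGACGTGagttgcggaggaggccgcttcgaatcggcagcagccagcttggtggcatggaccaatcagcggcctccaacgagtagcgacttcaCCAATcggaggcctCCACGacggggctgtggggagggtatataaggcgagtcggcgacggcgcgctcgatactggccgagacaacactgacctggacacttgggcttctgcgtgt
Creld2: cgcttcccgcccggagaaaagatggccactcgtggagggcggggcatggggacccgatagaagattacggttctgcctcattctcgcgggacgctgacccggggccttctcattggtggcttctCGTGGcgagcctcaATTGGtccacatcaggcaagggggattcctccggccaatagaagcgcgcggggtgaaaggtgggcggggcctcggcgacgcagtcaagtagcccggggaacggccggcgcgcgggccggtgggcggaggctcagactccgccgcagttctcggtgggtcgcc
Dnajc3: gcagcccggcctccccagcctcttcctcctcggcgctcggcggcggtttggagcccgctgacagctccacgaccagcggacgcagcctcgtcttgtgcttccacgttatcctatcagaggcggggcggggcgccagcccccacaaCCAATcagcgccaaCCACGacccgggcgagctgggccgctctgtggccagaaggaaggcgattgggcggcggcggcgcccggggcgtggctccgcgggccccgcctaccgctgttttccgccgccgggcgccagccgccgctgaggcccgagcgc
Dnajb11: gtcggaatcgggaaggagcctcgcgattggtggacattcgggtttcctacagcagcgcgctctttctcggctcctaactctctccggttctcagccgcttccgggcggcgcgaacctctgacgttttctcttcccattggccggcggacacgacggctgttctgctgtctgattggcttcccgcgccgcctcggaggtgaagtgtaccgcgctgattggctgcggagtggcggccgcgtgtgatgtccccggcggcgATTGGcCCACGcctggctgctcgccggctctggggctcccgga

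The motif of the amino acid response, the C/EBP-ATF response element (CARE, searched as TGATGNAA on both strands), was found in 3 of 13 amino acid genes with a window (Asns, Chac1 and Trib3), in 1 of 17 ER genes (Herpud1), and in 3.97% of all 32851 windows. In Asns its first base lay at position -23 from the start site. The ER stress response element (ERSE, searched as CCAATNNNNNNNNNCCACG) was found in 7 of the 17 ER genes, in 0 of the 13 amino acid genes and in 0.119% of all windows. The shorter ERSE-II (ATTGGNCCACG) was found in Dnajb11 and Herpud1 and in 0.0365% of all windows, and the core of the unfolded protein response element (UPRE, TGACGTG) in Hspa5 alone among the members and in 2.01% of all windows. Both ERSE forms contain the short core CCACG, which alone matched 15 of the 17 ER genes, 9 of the 13 amino acid genes and 32.8% of all windows. The matched ERSE sites of the other members follow, with capitals for the fixed letters and each on the strand of its gene.
Canx: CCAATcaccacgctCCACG
Pdia6: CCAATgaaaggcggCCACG
Hsp90b1, first site: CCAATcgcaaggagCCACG
Hsp90b1, second site: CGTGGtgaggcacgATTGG
Calr: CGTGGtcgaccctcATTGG
Herpud1, ERSE-II: ATTGGgCCACG

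The second site of Hsp90b1 and the site of Calr match in reverse, as does the site in the window of Creld2. A match is a description of the letters, and binding was not measured.

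All values below are log2 signals as deposited, and a gene is called at an adjusted p under 0.10 from limma, which tests every probe set and adjusts over all of them. The values of an array had a median between 6.46 and 6.65, samples of 1 group correlated at 0.991 to 0.996 over all probe sets, and precision is limited by how many arrays there are. Every member had a mean signal of at least 7.33, and levels of members are not set against each other, since probe sets differ in brightness at equal RNA. For cell type markers the percentile among genes is given as a rough guide only. Of 10 fibroblast markers, 9 lay at or above the 98.2 percentile of genes, and Thy1 lay at the 35.7 percentile. Markers of other cell types lay below those 9, from the 2.95 percentile (Scgb1a1) to the 54.7 percentile (Krt8) for epithelium, from 17.5 (Kdr) to 44.1 (Vwf) for endothelium and from 12.3 (Adgre1) to 50.5 (Cd68) for leukocytes. The mean of the fibroblast list lay at 11.83 to 11.92 in invading and 11.89 to 12.03 in non-invading samples at 96 h, and at 11.79 to 11.92 in invading and 11.93 to 11.98 in non-invading samples at 72 h. The epithelial list lay at 5.79 to 5.86 in invading and 5.61 to 5.78 in non-invading samples at 96 h, and at 5.89 to 6.03 in invading and 5.67 to 5.90 in non-invading samples at 72 h. The endothelial list lay at 5.72 to 5.82 in invading and 5.53 to 5.76 in non-invading samples at 96 h, and at 5.77 to 5.96 in invading and 5.67 to 5.85 in non-invading samples at 72 h. For the leukocyte list the range was 5.69 to 5.90 in invading and 5.52 to 5.66 in non-invading samples at 96 h, and 5.79 to 5.84 in invading and 5.68 to 5.77 in non-invading samples at 72 h. Single markers passed the test between fractions. Of the fibroblast list 4 of 10 were lower in the invading fraction at each time (Col1a1, Col1a2, Col3a1 and S100a4, with Col3a1 at -0.35 on the log2 scale at both times), with Pdgfrb higher at 72 h. Of the epithelial list 3 of 8 were higher at 96 h (Krt8 by 0.32) and 1 at 72 h (Krt8 by 0.53), and of the leukocyte list 2 of 6 were higher at 96 h (Cd68 by 0.56 and Lyz2 by 0.41). Of the endothelial list 0 of 6 were called at either time. These counts stand beside 16.7% of all genes called higher and 14.7% lower at 96 h, and 13.0% higher and 13.5% lower at 72 h. The signal of Lyz2 was low, with a mean of 5.43 over all samples, below the median of every array. At 96 h against 72 h, Col1a1 was lower in both fractions (-0.27 in the invading and -0.28 in the non-invading), Lyz2 was higher in the invading fraction (0.40) and Cd68 lower in the non-invading fraction (-0.53). The other markers called between times were Vim and Dcn, higher, and Krt18, Foxj1, Pecam1 and Itgam, lower, in the invading fraction, and Adgre1, lower, in the non-invading fraction. The part of these differences in the results was not tested. In bulk RNA, fewer cells of a type and less RNA per cell cannot be told apart. Invading replicate 4 at 72 h stood apart from the other 3 samples of its group, with an ER branch mean of 10.74 against 10.97 to 11.00, and an amino acid branch mean of 9.56 against 9.33 to 9.37. Where a call of a member changes without it, the value without it is given.

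The first comparison asked how the 2 fractions differ at each time. Slc7a5, Asns and Psat1, which import or make amino acids, and Manf, a protein of the ER lumen, fell in the invading fraction at both times. At 96 h Sesn2, Shmt2, Slc3a2 and Sdf2l1 rose, while at 72 h no member was called higher. At 96 h 4 of 34 members were called higher, against 16.7% of all genes, and 9 lower, against 14.7% of all genes. At 72 h 0 of 34 were called higher, against 13.0% of all genes, and 7 lower, against 13.5% of all genes. In the amino acid branch 3 of 14 were higher and 4 lower at 96 h (median log2 ratio -0.04), and 0 were higher and 4 lower at 72 h (-0.07). In the ER branch 1 of 20 was higher and 5 lower at 96 h (median 0.00), and 0 were higher and 3 lower at 72 h (-0.08). The median over all genes was 0.02 at 96 h and 0.04 at 72 h. Of the 9 genes lower at 96 h and the 7 lower at 72 h, 4 were the same (Asns, Psat1, Slc7a5 and Manf). Most ratios were small, and Slc7a5 was the only member called with a ratio beyond 1.5-fold, at both times, among 629 such genes at 96 h and 712 at 72 h.

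**Figure D1:**
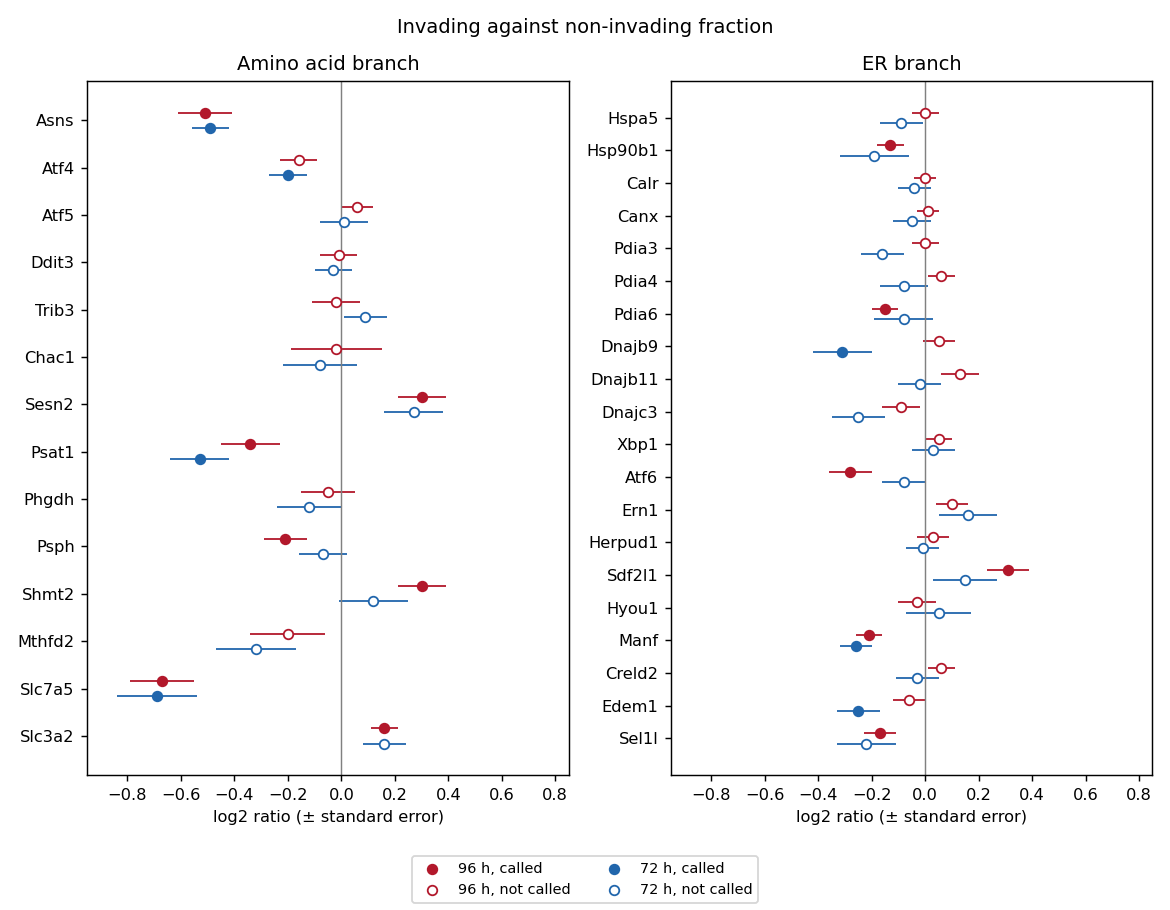
Log2 ratio, invading over non-invading, for the 34 members (amino acid branch left, ER branch right), at 96 h (red) and 72 h (blue). Points are limma estimates with standard errors, filled where the adjusted p was under 0.10. Slc7a5, Asns and Psat1 lie farthest to the left at both times, and most ER genes lie near 0.

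Slc7a5, the light chain of the transporter LAT1 that brings leucine and other large neutral amino acids into the cell, had signals of 9.49, 9.37, 9.29, 9.82 and 9.62 in invading samples at 96 h, against 9.96, 10.30, 9.97, 10.37 and 10.32 in non-invading samples. At 72 h it had 9.66, 9.64, 9.45 and 10.14 in invading samples and 10.55, 10.59, 10.16 and 10.34 in non-invading samples. Every invading sample lay below every non-invading sample of its time, although invading replicate 4 at 72 h, at 10.14, nearly reached the lowest non-invading value of 10.16. The log2 ratio was -0.67 at 96 h (SE, the standard error, 0.12, limma adjusted p = 0.0018), a ratio of 0.63, and -0.69 at 72 h (SE 0.15, adjusted p = 0.014), a ratio of 0.62. Without invading replicate 4 the ratio at 72 h was -0.83 (adjusted p = 0.0044). Slc3a2, the heavy chain that carries Slc7a5 and several other light chains to the membrane, rose at 96 h. It had 12.30, 12.37, 12.43, 12.45 and 12.44 in invading samples at 96 h, against 12.20, 12.26, 12.17, 12.30 and 12.28 in non-invading samples, so that the groups met at 12.30. Its log2 ratio was 0.16 at 96 h (SE 0.05, adjusted p = 0.038), and also 0.16 at 72 h, where it was not called (SE 0.08, adjusted p = 0.19).

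Asns, the enzyme that makes asparagine from aspartate with glutamine as the nitrogen donor, had 11.30, 11.35, 11.24, 11.49 and 11.39 in invading samples at 96 h, against 11.64, 11.84, 11.67, 12.17 and 12.02 in non-invading samples. At 72 h the values were 11.15, 11.17, 11.11 and 11.27 in invading samples and 11.69, 11.74, 11.55 and 11.68 in non-invading samples. The groups did not overlap at either time, and non-invading replicate 4 at 96 h was the highest sample. The log2 ratio was -0.51 at 96 h (SE 0.10, adjusted p = 0.0032) and -0.49 at 72 h (SE 0.07, adjusted p = 0.0019).

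Serine is made from a glycolytic intermediate in 3 steps, by Phgdh, Psat1 and Psph in that order, and of these Psat1 alone was called at both times. Psat1 had 10.36, 10.26, 10.33, 10.37 and 10.38 in invading samples at 96 h, against 10.34, 10.78, 10.53, 11.05 and 10.71 in non-invading samples. At 72 h it had 10.15, 10.06, 10.21 and 10.58 in invading samples and 10.80, 10.91, 10.73 and 10.71 in non-invading samples. The fractions were apart at 72 h, whereas at 96 h non-invading replicate 1 lay within the invading range. The log2 ratio of Psat1 was -0.34 at 96 h (SE 0.11, adjusted p = 0.039) and -0.53 at 72 h (SE 0.11, adjusted p = 0.011). Phgdh, the first step, had log2 ratios of -0.05 (SE 0.10, adjusted p = 0.75) at 96 h and -0.12 (SE 0.12, adjusted p = 0.54) at 72 h and was called at neither time. Psph, the last step, fell at 96 h (-0.21, SE 0.08, adjusted p = 0.085) and had -0.07 at 72 h (SE 0.09, adjusted p = 0.66). The call of Psph at 96 h was lost when any of 6 of the 10 samples was left out, with an adjusted p of 0.11 to 0.19.

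The mitochondrial folate enzymes take the carbon of serine further. Shmt2, which splits serine into glycine and a folate-bound carbon unit, had 10.27, 10.28, 10.23, 10.30 and 10.27 in invading samples at 96 h, against 9.88, 9.90, 9.81, 10.36 and 9.88 in non-invading samples. It rose in the invading fraction (0.30, SE 0.09, adjusted p = 0.034), with 4 of the 5 non-invading samples below every invading sample and replicate 4 above them all. At 72 h its ratio was 0.12 (SE 0.13, adjusted p = 0.56). Mthfd2, the next enzyme of that route, ran at 9.29 to 9.81 in invading and 9.41 to 9.96 in non-invading samples at 96 h, with a ratio of -0.20 (SE 0.14, adjusted p = 0.31). At 72 h its ratio was -0.32 (SE 0.15, adjusted p = 0.16), and without invading replicate 4 it was -0.45 and called (adjusted p = 0.036).

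Sesn2, a leucine-binding protein that restrains the growth kinase mTORC1, had 8.57, 8.44, 8.35, 8.55 and 8.48 in invading samples at 96 h, against 8.11, 8.12, 7.91, 8.43 and 8.33 in non-invading samples. The 72 h values were 8.76, 8.63, 8.61 and 8.69 in invading samples and 8.53, 8.62, 8.34 and 8.10 in non-invading samples. The groups overlapped by 1 non-invading sample at each time. Its log2 ratio was 0.30 at 96 h (SE 0.09, adjusted p = 0.035), and 0.27 at 72 h, which did not pass (SE 0.11, adjusted p = 0.12).

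**Figure D2:**
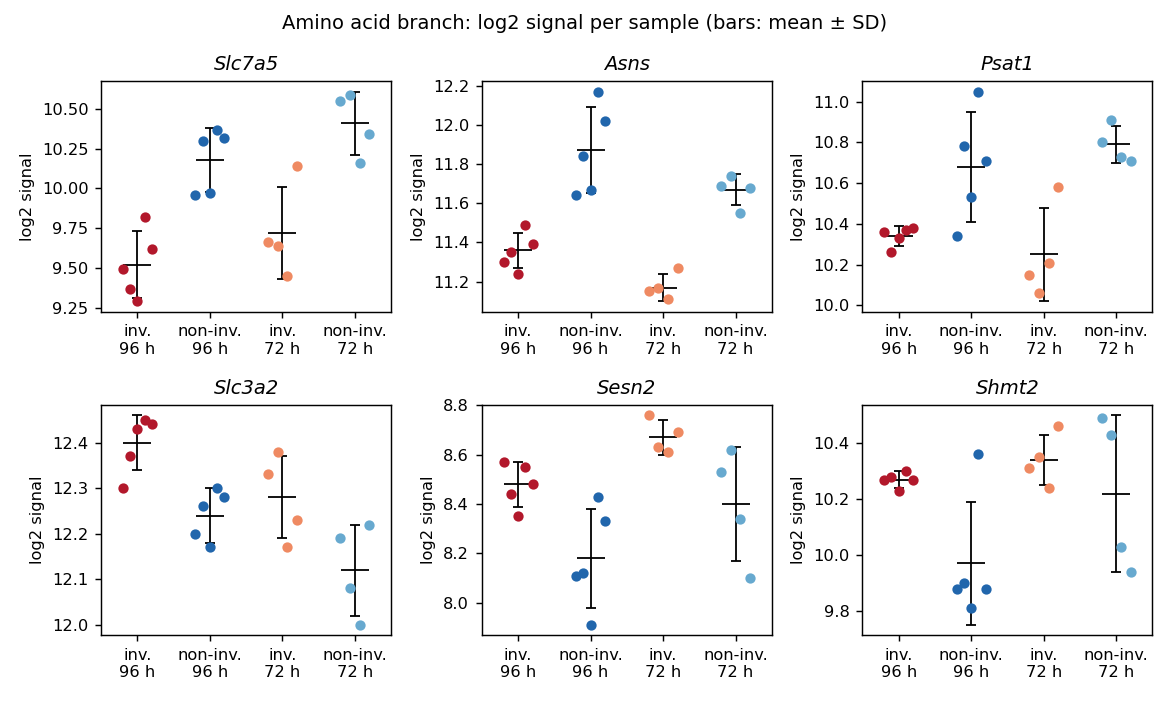
Log2 signal of 6 amino acid genes in every sample, with black bars for the mean and its standard deviation; groups from left to right are invading and non-invading at 96 h (5 samples each) and invading and non-invading at 72 h (4 each). Slc7a5 and Asns are lower in every invading sample than in any non-invading sample of the same time, and Slc3a2, Sesn2 and Shmt2 are higher on average.

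Of the regulators of the amino acid branch, Atf4 alone was called between fractions, at 72 h. It had 9.15, 9.14, 8.94, 9.06 and 8.91 in invading samples at 96 h, against 9.11, 9.29, 9.12, 9.31 and 9.21 in non-invading samples. Signals at 72 h were 9.11, 8.97, 8.90 and 9.03 in invading samples and 9.31, 9.18, 9.21 and 9.09 in non-invading samples. The fractions overlapped at both times, and Atf4 fell at 72 h (-0.20, SE 0.07, adjusted p = 0.093) and missed the threshold at 96 h (-0.16, SE 0.07, adjusted p = 0.1). The call at 72 h was lost when any of 6 of the 8 samples was left out, with an adjusted p of 0.13 to 0.19. Invading replicate 4 was among these, and without it the ratio of Atf4 at 72 h was -0.21 (adjusted p = 0.13).

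Atf5, a related factor that ATF4 induces, had 8.60, 8.55, 8.63, 8.67 and 8.76 in invading samples at 96 h, against 8.57, 8.62, 8.45, 8.67 and 8.58 in non-invading samples. At 72 h its values were 8.93, 8.83, 8.81 and 9.14 in invading samples and 8.94, 8.96, 8.81 and 8.94 in non-invading samples. These ranges overlap, and the log2 ratios were 0.06 (SE 0.06, adjusted p = 0.49) at 96 h and 0.01 (SE 0.09, adjusted p = 0.94) at 72 h. Ddit3, whose product CHOP is linked to cell death under lasting stress, had 8.58, 8.83, 8.58, 8.61 and 8.60 in invading samples at 96 h, against 8.58, 8.77, 8.57, 8.56 and 8.79 in non-invading samples. At 72 h it had 8.53, 8.39, 8.49 and 8.27 in invading samples and 8.50, 8.42, 8.43 and 8.44 in non-invading samples. The fractions covered each other at both times, with ratios of -0.01 (SE 0.07, adjusted p = 0.92) at 96 h and -0.03 (SE 0.07, adjusted p = 0.83) at 72 h. Trib3, a pseudokinase induced by ATF4 and CHOP, had ratios of -0.02 (SE 0.09) at 96 h and 0.09 (SE 0.08) at 72 h. Chac1, an enzyme that breaks down glutathione, had -0.02 (SE 0.17) at 96 h and -0.08 (SE 0.14) at 72 h. Neither was called at either time.

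In the ER branch the fraction ratios ran from -0.28 to 0.31 at 96 h and from -0.31 to 0.16 at 72 h. Manf, which binds BiP in the ER and is also secreted, was the only ER gene called at both times. It had 10.04, 9.98, 9.87, 9.98 and 9.96 in invading samples at 96 h, against 10.21, 10.18, 10.14, 10.14 and 10.23 in non-invading samples. At 72 h it had 9.81, 9.86, 9.87 and 9.74 in invading samples and 10.13, 10.10, 10.03 and 10.08 in non-invading samples. No invading sample reached the non-invading range of its time, and the log2 ratio was -0.21 at 96 h (SE 0.05, adjusted p = 0.0073) and -0.26 at 72 h (SE 0.06, adjusted p = 0.016).

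Among the sensors, Atf6, the membrane-bound factor that is cut in the Golgi to enter the nucleus, had 10.53, 10.28, 10.38, 10.41 and 10.34 in invading samples at 96 h, against 10.90, 10.63, 10.63, 10.44 and 10.75 in non-invading samples. Values of 72 h were 10.13, 10.25, 10.03 and 10.09 in invading samples and 10.20, 10.08, 10.21 and 10.33 in non-invading samples. It fell at 96 h (-0.28, SE 0.08, adjusted p = 0.028), with non-invading replicate 4 the only one inside the invading range, and had -0.08 at 72 h (SE 0.08, adjusted p = 0.51). Ern1, the gene of the sensor IRE1, had 9.87, 9.77, 9.72, 9.74 and 9.62 in invading samples at 96 h, against 9.72, 9.57, 9.73, 9.70 and 9.51 in non-invading samples. At 72 h the values were 9.81, 9.97, 9.79 and 9.69 in invading samples and 9.88, 9.76, 9.50 and 9.48 in non-invading samples. Its ranges overlapped, with ratios of 0.10 (SE 0.06, adjusted p = 0.29) at 96 h and 0.16 (SE 0.11, adjusted p = 0.33) at 72 h. Xbp1, the factor whose mRNA IRE1 splices, had 11.68, 11.78, 11.84, 11.76 and 11.91 in invading samples at 96 h, against 11.77, 11.78, 11.71, 11.73 and 11.74 in non-invading samples. At 72 h the values were 11.80, 11.77, 11.70 and 11.65 in invading samples and 11.85, 11.75, 11.63 and 11.57 in non-invading samples. The fractions overlapped here too, with ratios of 0.05 (SE 0.05, adjusted p = 0.54) at 96 h and 0.03 (SE 0.08, adjusted p = 0.83) at 72 h.

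Sdf2l1, which works with BiP and Dnajb11 to keep clients soluble, had 9.74, 9.64, 9.80, 9.56 and 10.03 in invading samples at 96 h, against 9.49, 9.44, 9.35, 9.50 and 9.45 in non-invading samples. Every invading sample lay above every non-invading sample, and Sdf2l1 was the only ER gene that rose between fractions (0.31, SE 0.08, adjusted p = 0.016). At 72 h its ratio was 0.15 (SE 0.12, adjusted p = 0.42). Sel1l, the adaptor of the HRD1 ubiquitin ligase that clears misfolded proteins, had 10.82, 10.64, 10.81, 10.65 and 10.80 in invading samples at 96 h, against 10.83, 10.88, 10.96, 10.89 and 11.01 in non-invading samples. It fell without overlap at 96 h (-0.17, SE 0.06, adjusted p = 0.055). At 72 h, also without overlap, the ratio was -0.22 (SE 0.11, adjusted p = 0.18) and did not pass. The disulfide isomerase Pdia6 (-0.15, SE 0.05, adjusted p = 0.054) and Hsp90b1, the ER form of HSP90 (-0.13, SE 0.05, adjusted p = 0.08), also fell at 96 h. At 72 h the ratio was -0.08 (SE 0.11) for Pdia6 and -0.19 (SE 0.13) for Hsp90b1, neither of them called. The call of Hsp90b1 at 96 h was lost when any of 8 of the 10 samples was left out, with an adjusted p of 0.11 to 0.18. That of Sel1l was lost without invading replicate 2 or 4 or non-invading replicate 3 or 5 (adjusted p of 0.11 to 0.13). That of Pdia6 was lost without invading replicate 2 or 4 or non-invading replicate 2 (adjusted p of 0.11 to 0.12). The count of 5 ER genes lower at 96 h became 2 without invading replicate 2 or without invading replicate 4, and 3 without non-invading replicate 2, 3 or 5.

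At 72 h Dnajb9, a co-chaperone of BiP that is made under IRE1 and XBP1, had 9.88, 9.78, 9.92 and 9.47 in invading samples, against 10.23, 10.02, 9.99 and 10.05 in non-invading samples. It fell without overlap (-0.31, SE 0.11, adjusted p = 0.075), with invading replicate 4 the lowest sample, and without that sample the ratio was -0.21 and not called (adjusted p = 0.12). The call was lost for 6 of the 8 samples left out in turn, with an adjusted p of 0.1 to 0.16. At 96 h its ratio was 0.05 (SE 0.06, adjusted p = 0.55). Edem1, a lectin that hands misfolded glycoproteins to degradation, had 10.76, 10.74, 10.73 and 10.47 in invading samples at 72 h, against 10.99, 10.87, 10.93 and 10.90 in non-invading samples. It fell without overlap (-0.25, SE 0.08, adjusted p = 0.057), and without invading replicate 4 the ratio was -0.18 (adjusted p = 0.089). Its call was lost without non-invading replicate 1 or 3 (adjusted p = 0.12 each). At 96 h its ratio was -0.06 (SE 0.06, adjusted p = 0.47). Without non-invading replicate 1 the ER genes called lower at 72 h were 1 and all members called were 4, and without non-invading replicate 3 the ER genes called lower were 1.

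The remaining ER genes were called at neither time. They were the Hsp70 chaperone of the ER, BiP (Hspa5), its nucleotide exchange factor Hyou1, the lectin chaperones Calr and Canx, the isomerases Pdia3 and Pdia4, the co-chaperones Dnajb11 and Dnajc3, Creld2, which is released from stressed ER, Herpud1, a scaffold of the degradation machinery, and the regulators Ern1 and Xbp1. Hspa5 had a log2 ratio of 0.00 (SE 0.05) at 96 h and -0.09 (SE 0.08) at 72 h. Calr had 0.00 (SE 0.04) at 96 h and -0.04 (SE 0.06) at 72 h. Hyou1 had -0.03 (SE 0.07) at 96 h and 0.05 (SE 0.12) at 72 h. Herpud1 had 0.03 (SE 0.06) at 96 h and -0.01 (SE 0.06) at 72 h. All 12 ran from -0.09 to 0.13 at 96 h and from -0.25 to 0.16 at 72 h. Pdia4 has a second, dim probe set with a mean signal of 4.82 whose ratio at 96 h was -0.47 (adjusted p = 3.2e-04), against 0.06 (SE 0.05) for the brightest, so the probe sets of this gene disagree. Dnajc3 also has 2 probe sets, with equal values in all 18 samples.

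Whether a fraction ratio differed between the times was tested as the difference of the ratios, 96 h minus 72 h. For 0 of 34 members limma called a difference, and 3 of 19938 genes, 0.0150%, were called. At an unadjusted p under 0.05 there was 1 member, Dnajb9, with a difference of 0.36 (SE 0.12, adjusted p = 0.37). The differences of the amino acid genes ran from -0.14 to 0.19 and those of the ER genes from -0.20 to 0.36. A call at only 1 of the times is therefore not shown to be a difference between the times.

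The second comparison set 96 h against 72 h within each fraction. The chaperones Hsp90b1 and Canx, the isomerase Pdia3, the co-chaperones Dnajb9, Dnajb11 and Dnajc3, Creld2 and Atf6 rose in both fractions. In the invading fraction 12 of 20 ER genes rose and 0 fell, with a median log2 ratio of 0.20, and in the non-invading fraction 8 rose and 0 fell, with a median of 0.14. Of the 14 amino acid genes 1 rose and 2 fell in the invading fraction (median 0.02), and 1 rose and 1 fell in the non-invading fraction (median -0.06). The median over all genes was -0.03 in the invading and -0.02 in the non-invading fraction. In the invading fraction 18.2% of all genes were called higher and 16.7% lower. The shares in the non-invading fraction were 15.4% higher and 12.2% lower. All genes include those with a lower signal than any member, and no share among genes of like signal was taken. The 9 members that rose in the non-invading fraction were all among the 13 that rose in the invading fraction, and they were Ddit3, Hsp90b1, Canx, Pdia3, Dnajb9, Dnajb11, Dnajc3, Atf6 and Creld2. In the invading fraction 3 members rose beyond 1.5-fold (Dnajb9, Dnajb11 and Dnajc3), among 605 genes that changed by so much in either direction, and in the non-invading fraction 0 did, among 392 genes. The labels name no array batch, and time and a batch that follows it cannot be told apart. These comparisons use the same samples as those between fractions. The difference of the ratios tested above is also the difference of the time ratios between the fractions. It was called for 0 of 34 members, so a call in only 1 fraction is not shown to be a difference between fractions.

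**Figure D3:**
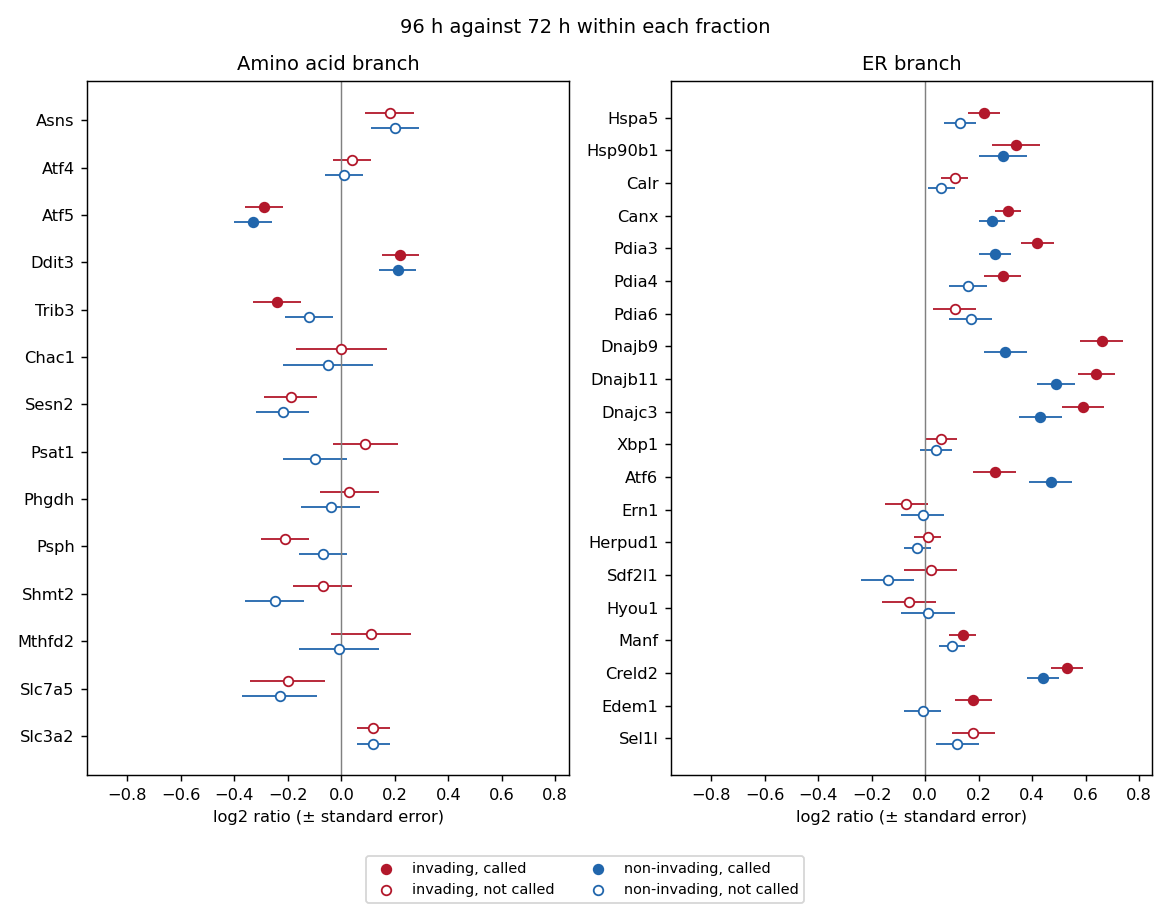
Log2 ratio of 96 h to 72 h for the 34 members (amino acid branch left, ER branch right), in the invading (red) and the non-invading (blue) fraction. Points are limma estimates with standard errors, filled where the adjusted p was under 0.10. The co-chaperones Dnajb9, Dnajb11 and Dnajc3 and Creld2 lie farthest to the right in the invading fraction, while Atf5 lies left of 0 in both.

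The 3 J-domain co-chaperones, which hand clients to BiP and start its ATP cycle, had the largest ratios in the invading fraction. Dnajb11 had 9.934, 10.001, 9.819, 9.794 and 9.761 in invading samples at 96 h, against 9.12, 9.19, 9.41 and 9.16 at 72 h. In the non-invading fraction it had 9.76, 9.87, 9.63, 9.66 and 9.71 at 96 h, against 9.35, 9.21, 9.20 and 9.20 at 72 h. The times did not overlap in either fraction, with log2 ratios of 0.64 in the invading (SE 0.07, adjusted p = 5.4e-06) and 0.49 in the non-invading fraction (SE 0.07, adjusted p = 1.5e-04). Dnajb9 had 10.38, 10.55, 10.36, 10.50 and 10.34 in invading samples at 96 h, against the 9.47 to 9.92 given above for 72 h. In the non-invading fraction it had 10.39, 10.35, 10.39, 10.30 and 10.45 at 96 h, against 9.99 to 10.23 at 72 h. The times were again apart in both fractions, with ratios of 0.66 in the invading (SE 0.08, adjusted p = 1.7e-05) and 0.30 in the non-invading fraction (SE 0.08, adjusted p = 0.015), and the invading ratio was 0.57 without replicate 4 of 72 h (adjusted p = 2.9e-05). Dnajc3, the gene of p58IPK, had 11.11, 10.99, 11.00, 10.95 and 10.82 in invading samples at 96 h, against 10.53, 10.47, 10.44 and 10.11 at 72 h. In the non-invading fraction it had 11.11, 11.16, 11.04, 10.91 and 11.09 at 96 h, against 10.62, 10.49, 10.68 and 10.73 at 72 h. No sample of 96 h reached down to those of 72 h, and the ratios were 0.59 in the invading (SE 0.08, adjusted p = 6.5e-05; 0.49 without replicate 4 of 72 h) and 0.43 in the non-invading fraction (SE 0.08, adjusted p = 0.0016).

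Creld2 had 11.09, 11.12, 11.15, 10.99 and 11.19 in invading samples at 96 h, against 10.65, 10.66, 10.58 and 10.44 at 72 h. In the non-invading fraction it had 11.15, 11.05, 11.03, 11.01 and 11.02 at 96 h, against 10.73, 10.66, 10.58 and 10.48 at 72 h. The 4 samples of 72 h lay below all samples of 96 h in each fraction, with ratios of 0.53 in the invading (SE 0.06, adjusted p = 1.1e-05) and 0.44 in the non-invading fraction (SE 0.06, adjusted p = 1.3e-04). Atf6 rose as well, by 0.26 in the invading (SE 0.08, adjusted p = 0.026) and 0.47 in the non-invading fraction (SE 0.08, adjusted p = 7.4e-04), and its samples, given above, did not overlap between times. The difference of these ratios of Atf6, -0.20 (SE 0.12, adjusted p = 0.68), did not pass the test.

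Pdia3, the isomerase that works with calnexin and calreticulin, rose by 0.42 in the invading (SE 0.06, adjusted p = 6.3e-05) and 0.26 in the non-invading fraction (SE 0.06, adjusted p = 0.0044). Canx, which encodes calnexin, rose by 0.31 (SE 0.05, adjusted p = 3.8e-04) in the invading and 0.25 (SE 0.05, adjusted p = 0.0034) in the non-invading fraction. For Hsp90b1 the ratios were 0.34 (SE 0.09, adjusted p = 0.013) in the invading and 0.29 (SE 0.09, adjusted p = 0.039) in the non-invading fraction. Without invading replicate 4 of 72 h, its lowest sample at 11.89, the invading ratio was 0.21 (adjusted p = 0.032), and the non-invading call was lost without replicate 1 or 2 of 72 h (adjusted p of 0.1 and 0.13). Hspa5 had 12.78, 12.73, 12.80, 12.64 and 12.73 in invading samples at 96 h, against 12.62, 12.57, 12.58 and 12.30 at 72 h. Its rise of 0.22 in the invading fraction (SE 0.06, adjusted p = 0.016) was 0.15 without replicate 4 of 72 h (adjusted p = 0.059), and in the non-invading fraction the ratio was 0.13 (SE 0.06, adjusted p = 0.16). Pdia4 rose in the invading fraction by 0.29 (SE 0.07, adjusted p = 0.005), with 0.16 (SE 0.07, adjusted p = 0.13) in the non-invading fraction. Its second, dim probe set did not show the rise in the invading fraction (-0.05, SE 0.08, adjusted p = 0.7). In the non-invading fraction that probe set had 0.18 (SE 0.08, adjusted p = 0.16). Without invading replicate 4 of 72 h, which also enters the shared estimate of the spread, the ratio of Pdia4 was 0.20 in the invading fraction (adjusted p = 0.013), and the 0.16 in the non-invading fraction was called (adjusted p = 0.036). In the same setting the non-invading ratios of Hspa5 (0.13, adjusted p = 0.061) and Pdia6 (0.17, adjusted p = 0.049) were called as well. Edem1 (0.18, SE 0.07, adjusted p = 0.062) and Manf (0.14, SE 0.05, adjusted p = 0.036) rose in the invading fraction. Without its replicate 4 of 72 h both calls were lost, with ratios of 0.11 for Edem1 (adjusted p = 0.24) and 0.12 for Manf (adjusted p = 0.12). The call of Edem1 was also lost without invading replicate 1, 2 or 3 of 96 h (adjusted p of 0.11 to 0.13). That sample also bears on the counts, since without it 10 ER genes were called higher in the invading and 11 in the non-invading fraction.

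**Figure D4:**
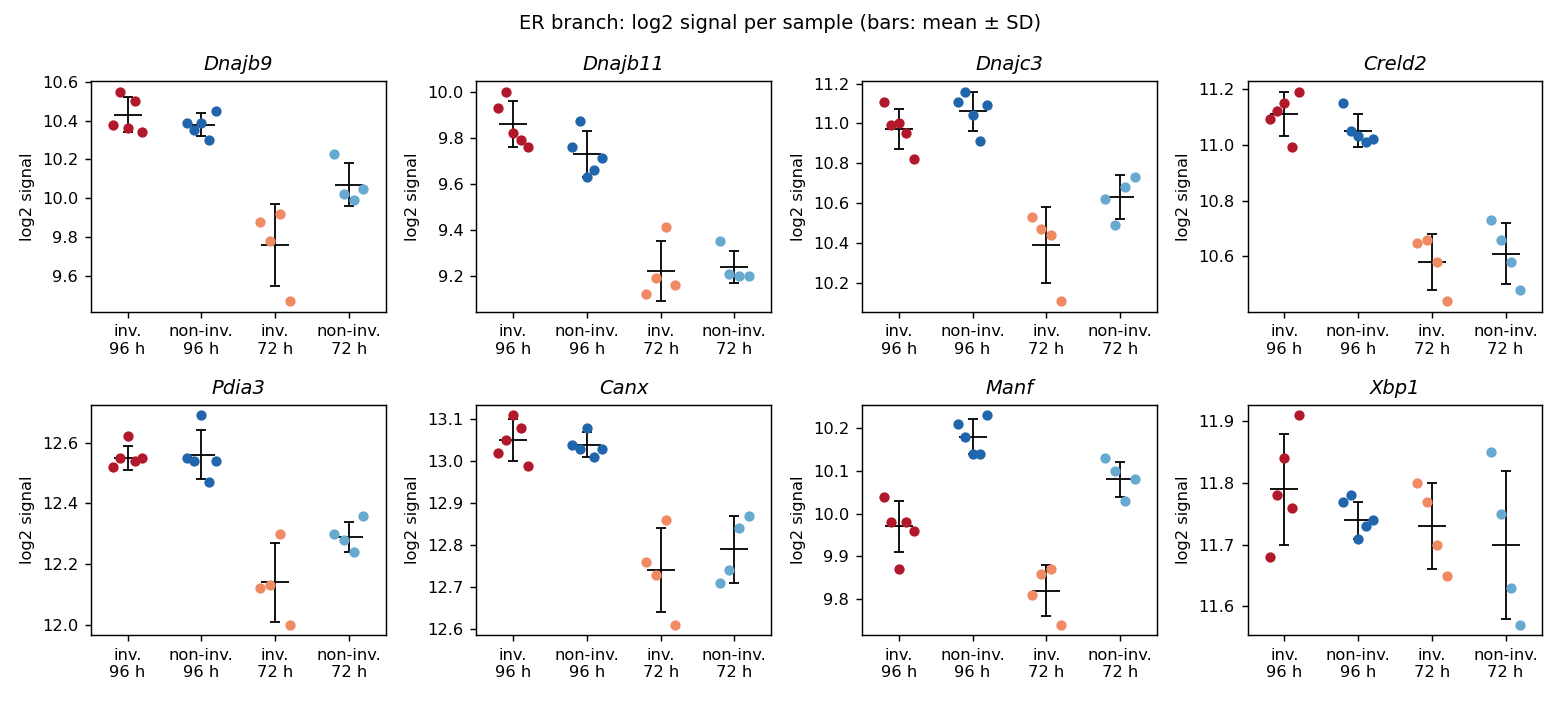
Log2 signal of 8 ER genes in every sample, with black bars for the mean and its standard deviation; groups from left to right are invading and non-invading at 96 h (5 samples each) and invading and non-invading at 72 h (4 each). Dnajb9, Dnajb11, Dnajc3, Creld2, Pdia3 and Canx are higher at 96 h in both fractions without overlap, Manf separates the fractions at each time, and Xbp1 overlaps throughout.

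The other 8 ER genes were not called in the invading fraction. Xbp1 had ratios of 0.06 in the invading and 0.04 in the non-invading fraction (SE 0.06 each), and Ern1 -0.07 in the invading and -0.01 in the non-invading fraction (SE 0.08 each). Herpud1 had 0.01 in the invading and -0.03 in the non-invading fraction (SE 0.05 each). For Hyou1 the ratios were -0.06 in the invading and 0.01 in the non-invading fraction (SE 0.10 each), and for Sdf2l1 0.02 in the invading and -0.14 in the non-invading fraction (SE 0.10 each). Calr (0.11, SE 0.05), Pdia6 (0.11, SE 0.08) and Sel1l (0.18, SE 0.08) had positive ratios in the invading fraction that did not pass. Of the 9 ER genes with an ERSE or ERSE-II in their window, 6 rose in the invading and 5 in the non-invading fraction, and of the 8 with a window and neither motif, 4 rose in the invading and 2 in the non-invading fraction. Over all genes 18.2% were called higher in the invading and 15.4% in the non-invading fraction. These counts are a description of few genes, and the motif was not tested against the change.

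In the amino acid branch Atf5 was lower at 96 h than at 72 h in both fractions, with ratios of -0.29 in the invading (SE 0.07, adjusted p = 0.0054) and -0.33 in the non-invading fraction (SE 0.07, adjusted p = 0.0026), and without overlap between the times. Ddit3 moved the other way, by 0.22 in the invading (SE 0.07, adjusted p = 0.03) and 0.21 in the non-invading fraction (SE 0.07, adjusted p = 0.049), also without overlap. The call of Ddit3 was lost in the invading fraction without replicate 4 of 72 h (0.17, adjusted p = 0.11). In the non-invading fraction it was lost without replicate 2 or 3 of 72 h and without replicate 2 or 5 of 96 h (adjusted p of 0.1 to 0.12). Trib3 fell in the invading fraction (-0.24, SE 0.09, adjusted p = 0.069), a call lost when any of 5 samples was left out (adjusted p of 0.11 to 0.19), and had -0.12 in the non-invading fraction (SE 0.09, adjusted p = 0.38). Invading replicate 4 of 72 h was among these samples, and without it the invading ratio of Trib3 was -0.20 (adjusted p = 0.19). Atf4 had ratios of 0.04 in the invading and 0.01 in the non-invading fraction (SE 0.07 each). Asns had 0.18 in the invading and 0.20 in the non-invading fraction (SE 0.09 each), and Slc7a5 -0.20 in the invading and -0.23 in the non-invading fraction (SE 0.14 each), none of them called.

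The mean over the ER genes lay at 11.12 to 11.21 in invading and 11.14 to 11.23 in non-invading samples at 96 h, and at 10.74 to 11.00 in invading and 10.98 to 11.07 in non-invading samples at 72 h. The mean over the amino acid genes lay at 9.27 to 9.50 in invading and 9.30 to 9.68 in non-invading samples at 96 h, and at 9.33 to 9.56 in invading and 9.39 to 9.65 in non-invading samples at 72 h. The ER means of the times were thus apart in both fractions, and the amino acid means of all 4 groups overlapped. The amino acid mean minus the ER mean was -1.80 ± 0.11 in invading and -1.72 ± 0.18 in non-invading samples at 96 h (SD, n = 5 each). At 72 h it was -1.53 ± 0.23 in invading and -1.48 ± 0.10 in non-invading samples (SD, n = 4 each). The difference between fractions, -0.08 at 96 h and -0.05 at 72 h, was smaller than the spread between samples at each time. At 72 h this rests on invading replicate 4, at -1.19. The other invading samples, at -1.62, -1.66 and -1.64, lay below all non-invading samples, at -1.42, -1.39, -1.60 and -1.50, and without replicate 4 the difference was -0.16, larger than the SD of 0.10 of the non-invading samples.

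**Figure D5:**
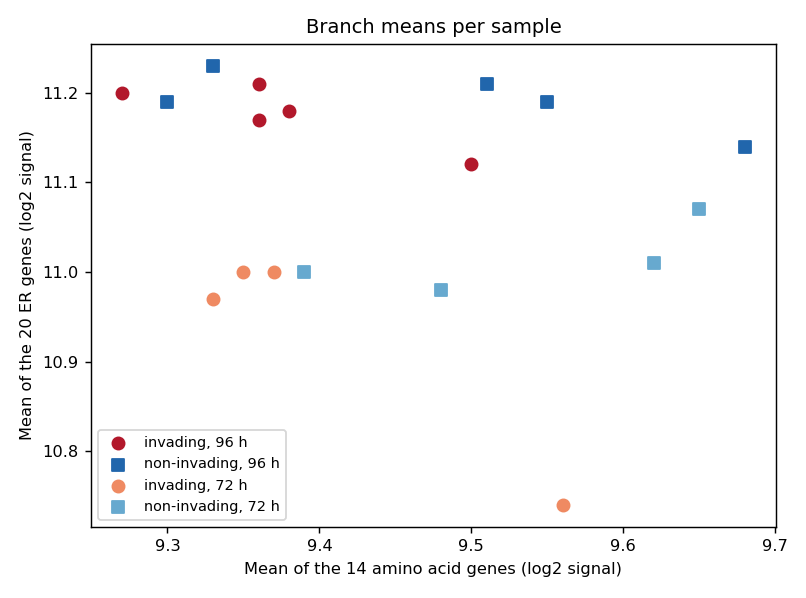
Mean log2 signal of the 20 ER genes against the mean of the 14 amino acid genes, with 1 point for each of the 18 samples. Samples of 96 h lie above those of 72 h on the ER axis, the 4 groups overlap on the amino acid axis, and invading replicate 4 of 72 h lies lowest, at an ER mean of 10.74.

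Other genes of the same pathways were counted from lists that hold none of the 34 members. Among all genes the shares called at 96 h were 16.7% higher and 14.7% lower in invading cells, and at 72 h they were 13.0% higher and 13.5% lower. In a list of further amino acid transport and synthesis genes, of 16 measured, 4 rose and 6 fell in the invading fraction at 96 h (median -0.02), and 2 were higher and 5 lower at 72 h (median -0.11). The arginine and lysine transporter Slc7a1 fell at both times (-0.60, SE 0.09, adjusted p = 6.0e-04 at 96 h and -0.66, SE 0.12, adjusted p = 0.0051 at 72 h), whereas Gpt2, a mitochondrial alanine aminotransferase, rose (0.45, SE 0.08, adjusted p = 0.0025 at 96 h and 0.53, SE 0.08, adjusted p = 0.0022 at 72 h). The cystine transporter Slc7a11 rose at 72 h (0.78, SE 0.17, adjusted p = 0.012) and had 0.54 at 96 h (SE 0.26, adjusted p = 0.15), and Slc7a3, another transporter of basic amino acids, fell at both times (-0.49, SE 0.08, adjusted p = 0.0012 at 96 h and -0.37, SE 0.11, adjusted p = 0.045 at 72 h). The signal of Slc7a3 was low, with group means of 5.43 in the invading and 5.92 in the non-invading fraction at 96 h, below the median of every array.

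In a list of genes for protein translocation into the ER, 15 of 19 were higher and 1 was lower at 96 h in the invading fraction (median 0.26), against 18.2% higher and 16.7% lower over all genes. In the non-invading fraction 10 were higher and 1 was lower (median 0.17), against 15.4% higher and 12.2% lower over all genes. Srp9, a subunit of the signal recognition particle, rose by 0.77 in the invading (SE 0.07, adjusted p = 1.0e-06) and 0.55 in the non-invading fraction (SE 0.07, adjusted p = 5.6e-05). In a list of N-glycosylation and folding enzymes 12 of 19 rose in the invading (median 0.18) and 8 in the non-invading fraction (median 0.13), with 0 lower in either, led by the prolyl isomerase Fkbp14 (0.86, SE 0.08, adjusted p = 1.4e-06 in the invading and 0.60, SE 0.08, adjusted p = 8.7e-05 in the non-invading fraction). Of 15 genes of ER-associated degradation, 5 were higher and 2 lower at 96 h than at 72 h in the invading fraction (median 0.09). In the non-invading fraction 6 were higher and 3 lower (median 0.10). Of the 16 further amino acid genes 0 rose and 3 fell over time in the invading fraction. In the non-invading fraction 1 of them rose and 5 fell. Between fractions, 6 translocation genes were higher and 4 lower at 96 h, and 2 were higher and 6 lower at 72 h. The signal peptidase subunit Spcs3 fell at both times (-0.45, SE 0.07, adjusted p = 0.0011 at 96 h and -0.58, SE 0.07, adjusted p = 0.0014 at 72 h). Of the glycosylation and folding list 3 were higher and 5 lower at 96 h, and 1 was higher and 7 lower at 72 h. In the list of ER-associated degradation 4 of 15 were higher and 3 lower at each time, counts to be read against the 16.7% higher and 14.7% lower of all genes at 96 h and the 13.0% higher and 13.5% lower at 72 h. Its largest ratio was that of Edem3, a relative of Edem1, with -0.41 (SE 0.08, adjusted p = 0.0039) at 96 h and -0.44 (SE 0.09, adjusted p = 0.0093) at 72 h, while Edem2 rose by 0.34 at 96 h (SE 0.08, adjusted p = 0.0081) and 0.32 at 72 h (SE 0.08, adjusted p = 0.024).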

How the data were processed

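RNA of the 2 fractions at both times was hybridised to Affymetrix Mouse Gene 1.0 ST arrays. The authors deposited log2 values per probe set and used Expression Console, given as version 1.2 by the submitters' processing notes, for background correction, sketch-quantile normalization and the RMA summary. These values were not changed here. Of 35556 probe sets, 21789 carry 1 symbol in the platform annotation, 1621 several and 12146 none. Fractions were compared within each time, and times in 1 fit over all 18 samples, with limma 3.58.1 in R 4.3.3 and Benjamini-Hochberg adjustment over all probe sets, called at an adjusted p under 0.10. The scripts were tested on simulated data. The members and lists were chosen with earlier results of these data known.

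All members are named. Values of every sample are given for the regulators, for up to 4 called members with the largest ratios per branch, time and comparison of times, and for further genes picked after their values were seen (Slc3a2, Shmt2, Sesn2 and Hspa5 among them). Of each further list up to 3 called genes with the largest ratios per time were eligible, and some are given. Alternatives were the replicate number as a block, another normalization or centring, limits on signal or annotation, an intensity trend, 1 fit over all samples, a stricter threshold, the mean of probe sets per gene, and leaving out each sample. Each p-value sets a difference of means against the spread between these samples, which all come from 1 cell line.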

Additional observations from a re-analysis of the deposited data

Results flagged for a closer look

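In 10 of 136 groups of samples tested over the 34 members, the highest or lowest sample stood far from the others of its group, and chance flags about 1 in 20 groups. Invading replicate 4 at 72 h accounted for 3 of them, all low and all ER genes: Hspa5 at 12.30 (the others 12.57 to 12.62), Hsp90b1 at 11.89 (12.40 to 12.43) and Edem1 at 10.47 (10.73 to 10.76). Non-invading replicate 1 was high for Hyou1 at 96 h, at 10.82 (10.57 to 10.61), for Creld2 at 96 h, at 11.15 (11.01 to 11.05), and for Dnajb11 at 72 h, at 9.35 (9.20 to 9.21). In the invading fraction at 96 h, Ddit3 was high in replicate 2 at 8.83 (8.58 to 8.61), Phgdh was high in replicate 5 at 9.53 (9.10 to 9.20), and Pdia4 was low in replicate 4 at 12.10 (12.24 to 12.28). Shmt2 was high in non-invading replicate 4 at 96 h, at 10.36 (9.81 to 9.90).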

How the results depend on the processing

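The count of members called between fractions at 72 h was 7 in the fits above. It was 12 with 1 fit over all samples and 4 at an adjusted p under 0.05. Shares of all genes called are given for the fits above alone. Whether the counts in this section moved with the calls over all genes was not tested. Leaving out 1 sample gave 4 to 7 members at 72 h, 10 to 13 at 96 h (13 with all samples), 11 to 17 for 96 against 72 h in the invading fraction (15) and 8 to 13 in the non-invading fraction (10), and 0 for the difference between times. The ratio of Pdia4 at 96 h turned to -0.20 (adjusted p = 0.01) when its 2 probe sets were averaged, and no other called ratio of a member changed sign under the alternatives run. The numbers of the replicates gave a weak pairing of the fractions at 96 h and no clear pairing at 72 h. Samples of both fractions with 1 number correlated, after removal of group means, at 0.05 to 0.17 at 96 h and -0.07 to 0.09 at 72 h. At 96 h 4 of 5 numbers matched best with their own, and at 72 h 1 of 4 did. The fits above leave the numbers out, whereas the study used paired t-tests for receptor genes read from these arrays. With the replicate block, 13 members were called between fractions at 96 h and 6 at 72 h. Between times 16 were called in the invading and 12 in the non-invading fraction, with 0 for the difference. In the comparisons of times within a fraction, that block joined equal numbers of both times, a link that the labels do not state. The call of Slc3a2 at 96 h was lost after quantile normalization was applied again (adjusted p = 0.11). Calls of Asns, Slc7a5, Psat1 and Manf between fractions at both times, and of Dnajb9, Dnajb11, Dnajc3, Creld2, Pdia3 and Canx between times in both fractions, held under each alternative run. The cause of the other changes was not tested.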

Other observations

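Of 18 aminoacyl-tRNA synthetases, several of which ATF4 is known to induce, 7 rose and 2 fell in the invading fraction at 96 h (median log2 ratio 0.04), and 1 rose and 2 fell at 72 h (median -0.02). Yars (0.33, SE 0.07, adjusted p = 0.0049 from limma) and Farsa (0.31, SE 0.07, adjusted p = 0.008) rose at 96 h, and Iars fell at 72 h (-0.35, SE 0.07, adjusted p = 0.01). Of 14 further stress regulators, 3 were higher and 5 lower at 96 h, and 3 were higher and 2 lower at 72 h. Cebpb, a partner of ATF4 on DNA, rose by 0.43 at 96 h (SE 0.07, adjusted p = 0.0011) and 0.61 at 72 h (SE 0.10, adjusted p = 0.004). Ddit4, an inhibitor of mTORC1, rose by 0.52 at 96 h (SE 0.14, adjusted p = 0.017) and 0.46 at 72 h (SE 0.11, adjusted p = 0.016). Cebpg, another partner of ATF4, fell, with ratios of -0.30 at 96 h (SE 0.06, adjusted p = 0.0036) and -0.38 at 72 h (SE 0.08, adjusted p = 0.0088). Of 9 genes of ER stress sensing and processing, 3 were higher and 1 lower at 96 h, and 2 were higher and 0 lower at 72 h, with Wfs1, an ER membrane protein, at 0.30 (SE 0.06, adjusted p = 0.0046) at 96 h and 0.20 (SE 0.07, adjusted p = 0.068) at 72 h. Over all genes 16.7% were higher and 14.7% lower at 96 h (median 0.02), and 13.0% were higher and 13.5% lower at 72 h (median 0.04).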
